A study of Mus musculus with 14 samples.

Results

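Gene expression in skeletal muscle was compared between mice on western diet (WD) and mice on control diet (CTD), pooling control mice (CT) with mice that overexpress c-Myc in endothelial cells (EC-Myc OE). The comparison took every library labelled with either diet, 7 on WD and 7 on CTD, which were 14 of the 14 libraries of the series, and genotype entered the model as a covariate. The study asked how raised c-Myc in endothelial cells bears on obesity and its complications, and the pooled comparison asks what the diet did in muscle of both genotypes alike. All mice were FVB/N males, and both genotypes carried the Tet-O-Myc transgene, a human c-Myc gene on the Y chromosome under a tetracycline-controlled promoter. EC-Myc OE mice also carried Cdh5-tTA, a transactivator driven by an endothelial promoter that switches the transgene on once doxycycline is withdrawn, whereas their CT littermates lacked it. Doxycycline was withdrawn at 4 to 6 weeks of age, and by the labels WD, a high-fat diet, or CTD was fed for 20 weeks. There were 3 libraries of CT on CTD (CT-CTD), 3 of CT on WD (CT-WD), 4 of EC-Myc OE on CTD (OE-CTD) and 4 of EC-Myc OE on WD (OE-WD). RNA came from soleus and gastrocnemius, muscles of slow and fast type, and the labels leave unstated which muscle gave each library. The transgene acts in endothelial cells, and the libraries hold RNA of all cells of the muscle. The level of the transgene itself was not analysed here.

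Group sizes and the time on diet in the study's text differ in places from the labels, and the labels were followed. For the transcriptome the study's text gives a shorter time on WD than the 20 weeks of the labels. The labels hold 3 libraries in both CT groups and 4 in both EC-Myc OE groups. The study's transcriptome figure instead gives 3 on CTD and 4 on WD. For this reason each result was also computed with the CT-WD libraries taken as OE-CTD and the OE-CTD libraries as CT-WD, hereafter the exchanged names. By its construction the exchange turns the labelled genotype difference into the diet difference, so that diet values given here would be genotype values if those labels were exchanged. The exchange yields the group sizes of the study's figure. The study also names Zbtb16, Acsl3 and Rabif as higher in EC-Myc OE than in CT on WD. By the labels the mean level of Acsl3 was higher there, and those of Zbtb16 and Rabif were lower. Under the exchanged names each of these means was higher. By the labels the log2 fold change of OE-WD relative to OE-CTD was 1.23 for Zbtb16, 0.65 for Acsl3 and 1.03 for Rabif. The exchange makes these the values of EC-Myc OE relative to CT on WD. Socs3 had a mean of 7.04 CPM in the libraries labelled CT-WD and 3.86 CPM in those labelled OE-WD. The exchange makes these the means of EC-Myc OE on CTD and on WD. Whether the labels were in fact exchanged was not tested. Of 43 genes reported singly by rule, 32 changed sign under the exchanged names, and for the 7 that had an adjusted p under 0.05 by either naming the value is given beside the gene.

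A high-fat diet raises the supply of fatty acids to muscle, which takes them up from the capillaries and burns them in mitochondria under the control of nuclear receptors such as the PPARs. Glucocorticoids, hormones of the adrenal cortex, act in the same tissue through their own nuclear receptor and favour the release of amino acids and the sparing of glucose. Endothelial cells line the capillaries and pass fuel and hormones from blood to fibre.

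The libraries held between 22083340 and 28519159 counted reads on CTD (median 24807368) and between 21833839 and 27698046 on WD (median 25281275). Markers of skeletal muscle were high in every library, with levels given as TMM-normalised counts scaled to library size (CPM). Acta1, the actin of the muscle fibre, lay between 37282 and 52610.3 CPM, and Ckm, muscle creatine kinase, between 11758 and 15874 CPM. Fast myosin Myh4 lay between 38331 and 62699 CPM and slow myosin Myh7 between 844 and 1648 CPM, so that no library was mainly slow muscle by these genes. Libraries of the same group always differed by more than the sampling noise, with a chi-square per degree of freedom between 7.50 and 48.1. Among the libraries, OE-CTD 4 and OE-WD 4 stood apart on the second principal component (12.6% of the variance), and in both a larger share of reads came from mitochondrial DNA, 14.9% and 14.5%, against 9.66% to 12.8% elsewhere. On the first component (28.01%), CT-CTD 1 and CT-WD 1 lay at -0.15 and 20.3, away from the other CT libraries, which lay between -47.0 and -33.1. Each pair holds 1 library of each diet. A code number in the labels, whose meaning is not stated, was shared by all 4 OE-WD libraries and, with another value, by OE-CTD 1 to 3, while OE-CTD 4 had its own. Within EC-Myc OE, diet and this code cannot therefore be told apart, while in CT each library had a code of its own.

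Across both genotypes, 2 of the 15458 genes tested (0.0129%) rose on WD at an adjusted p-value under 0.05 in edgeR's quasi-likelihood test, and none fell. They were Zbtb16 and Cntfr, and both were more than 1.5-fold higher. DESeq2's Wald test called 6 genes, 5 higher and 1 lower, and limma on FPKM and voom with sample weights each called 1, Zbtb16. With 1 library left out, edgeR called 0 genes (without CT-WD 3 or OE-CTD 4), 1 gene (without CT-CTD 2, CT-CTD 3, CT-WD 2, OE-CTD 1 or OE-WD 3), 3 genes (without CT-WD 1, with Tsc22d3 added) or 2 genes, which without OE-WD 1 were Zbtb16 and Rpl41. Without adjustment, 474 genes (3.07%) were higher on WD at a p-value under 0.05, hereafter the unadjusted level, and 315 genes (2.04%) were lower. Both directions together held 789 genes (5.10%), near the share that a cut at 0.05 gives by chance. The median log2 fold change over all genes was 0.00087. A fold change over 1.5 at the unadjusted level was reached by 209 genes (1.35%), 141 higher and 68 lower. Each of them had the same sign in CT and in EC-Myc OE, which selection on the pooled fit makes nearly certain beforehand. Of the 209, 75 had a mean of at least 1 CPM, 57 of them higher on WD. A gene typically varied by 17.1% between replicates. The labels name no separate animals, so that p-values measure only the spread between these libraries, which may be technical.

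Zbtb16 (ENSMUSG00000066687, chromosome 9, 48654297 to 48836222, minus strand of GRCm38) encodes a zinc finger transcription factor, also known as PLZF, whose transcript is a classic target of the glucocorticoid receptor. Libraries CT-CTD 1 to 3 held 82.1, 79.5 and 98.8 CPM of it and libraries CT-WD 1 to 3 held 117, 136 and 181 CPM. For OE-CTD 1 to 4 the values were 40.8, 46.6, 44.1 and 39.3 CPM, and for OE-WD 1 to 4 they were 131, 90.3, 89.5 and 89.5 CPM. Every WD library was above every CTD library of its own genotype, but the diets overlapped once the genotypes were pooled, because CT-CTD lay at the level of OE-WD. The means were 61.6 ± 24.4 CPM (SD, n = 7) on CTD and 119 ± 33.7 CPM (SD, n = 7) on WD. With genotype as covariate Zbtb16 rose 2.02-fold on WD, by 1.02 ± 0.125 (SE) on the log2 scale (adjusted p = 0.00927 in edgeR's test). The log2 fold change was 0.74 within CT and 1.23 within EC-Myc OE. With each library left out in turn it stayed between 0.92 and 1.09, and the adjusted p was above 0.05 without CT-WD 3 (0.0639) and without OE-CTD 4 (0.0631). Its adjusted p was also above 0.05 without the filter on low counts (0.0878), without the genotype covariate, and with the replicate number as a block in both genotypes (0.127). Without both OE-CTD 4 and OE-WD 4 the value was 0.99 (adjusted p = 0.181), and under the exchanged names it was -0.78 (adjusted p = 0.00223).

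Cntfr (ENSMUSG00000028444, chromosome 4, 41657498 to 41697089, minus strand) encodes the binding subunit of the receptor for ciliary neurotrophic factor, a cytokine of the interleukin 6 family that acts on neurons and muscle. Libraries CT-CTD 1 to 3 held 22.3, 17.1 and 15.8 CPM of it, against 27.98, 29.3 and 34.7 CPM for CT-WD 1 to 3. The OE-CTD libraries 1 to 4 held 13.6, 16.2, 16.8 and 13.98 CPM, against 26.6, 19.8, 21.1 and 20.5 CPM for OE-WD 1 to 4. Again no WD library overlapped with a CTD library of its genotype, and of all CTD libraries only CT-CTD 1 reached the range of WD. Mean levels were 16.5 ± 2.85 CPM (SD, n = 7) on CTD and 25.7 ± 5.53 CPM (SD, n = 7) on WD. It rose 1.54-fold, by 0.62 ± 0.0955 (SE) on the log2 scale (adjusted p = 0.0289 in edgeR's test), with 0.74 in CT and 0.53 in EC-Myc OE. The call depended on the fit. Libraries of CT with the same replicate number departed from their means in a correlated way, though number 2 matched number 3 better than itself, and with these numbers as a block in CT the adjusted p of Cntfr was 0.0560, whereas Zbtb16 kept its call. With each library left out in turn the log2 fold change was between 0.57 and 0.66 and the adjusted p was above 0.05 in 8 of 14 fits, without any 1 of CT-CTD 2, CT-CTD 3, CT-WD 2, CT-WD 3, OE-CTD 1, OE-CTD 4, OE-WD 1 and OE-WD 3, with the highest value (0.130) without CT-CTD 2. Under the exchanged names the log2 fold change was -0.38 (adjusted p = 0.0205). In bulk muscle, fewer cells of a type and less RNA per cell cannot be told apart, nor can more cells and more RNA per cell.

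**Figure D1:**
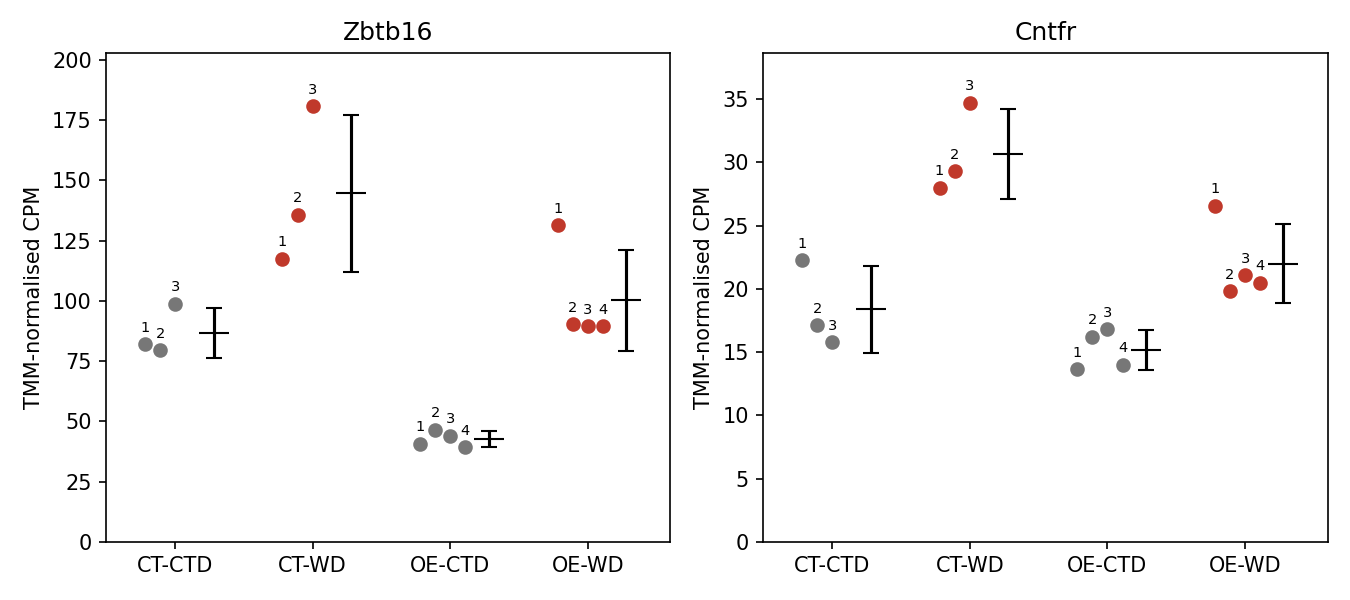
Level of Zbtb16 and Cntfr in TMM-normalised CPM (vertical axis) in each library of CT and EC-Myc OE on CTD (grey) and WD (red), numbered by replicate, with the mean and SD of each group in black. Within each genotype all WD libraries sit above all CTD libraries, for Zbtb16 from 117 CPM against at most 98.8 CPM in CT and from 89.5 CPM against at most 46.6 CPM in EC-Myc OE.

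After these genes, the smallest adjusted p was 0.268, for Notch4. It and the 9 genes that follow were higher on WD at the unadjusted level, with the same sign in both genotypes, and did not pass the adjusted level in edgeR's test. Of these, Notch4, Sema3g and Ace are known from blood vessels, and whether vessel genes were more frequent here than among all genes was not tested. Notch4, a Notch receptor of endothelial cells, had 24.0 ± 1.45 CPM (SD, n = 7) on CTD and 30.5 ± 3.35 CPM (SD, n = 7) on WD, a log2 fold change of 0.35 over both genotypes, 0.35 for CT and 0.34 for EC-Myc OE. All WD libraries exceeded all CTD libraries within CT and within EC-Myc OE, and DESeq2's Wald test gave an adjusted p of 0.0108. Sema3g, a secreted semaphorin of arterial endothelium, had 21.4 ± 2.32 CPM (SD, n = 7) on CTD and 26.9 ± 1.64 CPM (SD, n = 7) on WD, and its lowest WD library (24.5 CPM) was above its highest CTD library (23.9 CPM) without regard to genotype. Its log2 fold change was 0.33 (unadjusted p = 0.000269 in edgeR's test). Ace, angiotensin-converting enzyme, sits on the surface of capillary endothelium and had a log2 fold change of 0.34, with 51.2 ± 7.59 CPM (SD, n = 7) on CTD and 64.6 ± 10.1 CPM (SD, n = 7) on WD.

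The others were less clearly tied to a cell type. Fam129b had a log2 fold change of 0.35, but it overlaps the antisense gene Lrsam1, at a mean of 16.2 CPM against 15.1 CPM for Fam129b, and the strand setting of the counting is not given in the sources used here, so its value is uncertain. Ms4a4a, a membrane protein gene of the MS4A family, had the largest log2 fold change of the 10 (1.36) at the lowest level, 0.600 ± 0.334 CPM (SD, n = 7) on CTD and 1.51 ± 0.468 CPM (SD, n = 7) on WD. DESeq2's Wald test also called Fam129b and Ms4a4a, with adjusted p of 0.0271 and 0.0312. Prima1, which anchors acetylcholinesterase in membranes, had a log2 fold change of 0.64, and -0.80 (adjusted p = 0.00526) under the exchanged names. Log2 fold changes were 0.57 for Pitpnm3, a phosphatidylinositol transfer protein gene, 0.56 for Cmip, 0.27 for Med13l, a subunit of the Mediator complex of transcription, and 0.28 for Adarb1, an enzyme that edits adenosine in RNA. Of the last 4, Adarb1 alone had no overlap between the diets in either genotype.

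No gene fell at the adjusted level in edgeR's test, where 315 were lower at the unadjusted level and DESeq2 called 1, Ccl21a. The lower genes with the smallest p at a mean of at least 1 CPM that are named here had log2 fold changes between -0.997 and -0.19. Cntnap2, a neurexin-like adhesion protein gene, had 10.6 ± 2.33 CPM (SD, n = 7) on CTD and 7.92 ± 1.64 CPM (SD, n = 7) on WD, a log2 fold change of -0.42, and no overlap within either genotype. Snai3, a repressor of the Snail family, had a log2 fold change of -0.55, with CT-WD 1 within the range of CT-CTD. Values were -0.66 for Samd5, -0.74 for Camk1g, a calmodulin-dependent kinase at about 1 CPM, -0.38 for Pcp4l1, a calmodulin-binding peptide, and -0.19 for Mtx2, part of the import machinery of the outer mitochondrial membrane.

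Of these genes, 6 are uncertain because of shared sequence or position. Cntnap2 lies antisense to the pseudogene Rbpj-ps3, at a mean of 4.53 CPM against 9.24 CPM for Cntnap2. Apol6 (-0.28) lies antisense to the myoglobin gene Mb, at a mean of 2128 CPM against 44.5 CPM, Fam118b (-0.26) antisense to Srpr at 327 CPM against 20.4 CPM, and Pitpnc1 (-0.20, and 0.27 under the exchanged names) antisense to Gm11716 at 15.8 CPM against 53.2 CPM. Trim13 (-0.38) is antisense to Dleu2 at a similar level, 6.86 CPM against 7.16 CPM. Rpl41, a ribosomal protein gene with many processed pseudogenes, had 141 ± 20.0 CPM (SD, n = 7) on CTD and 70.3 ± 34.3 CPM (SD, n = 7) on WD, a log2 fold change of -0.997. Libraries CT-WD 1 to 3 held 50.9, 66.0 and 73.0 CPM and OE-WD 1 to 4 held 143, 44.8, 44.4 and 69.6 CPM, so that OE-WD 1 stayed at the level of CTD while the other WD libraries were far lower. Without OE-WD 1 the log2 fold change was -1.29 and the adjusted p 3.40e-05 in edgeR's test.

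Diet separated the libraries of both genotypes without overlap for 22 genes higher on WD (0.142%) and for 13 genes lower on WD (0.0841%). When the genotypes were set aside, all 7 WD libraries were above all 7 CTD libraries for 7 genes (0.0453%) and below them for 2 genes (0.0129%). These genes were named after their values were seen, unless named above. The 7 were Sema3g, Ctnnbl1, Vsig10, Tox2, Olfm2 and the noncoding transcripts F730311O21Rik and E330013P04Rik, and only Sema3g and Ctnnbl1 (from 10.1 to 12.05 CPM, log2 fold change 0.26) had a mean of at least 10 CPM. The 2 were Tmem65, a protein of the inner mitochondrial membrane (299.8 to 273 CPM, log2 fold change -0.14), and the chemokine gene Ccl21a (1.05 to 0.225 CPM, -2.23). Ccl21a has near-identical copies in the mouse genome, which leaves its count uncertain. Among abundant genes without overlap within a genotype were Rilpl1 (log2 fold change 0.25), Mafg, a small Maf transcription factor (0.21), Clu, the secreted chaperone clusterin (0.34), and Acvrl1, a receptor of endothelial cells for bone morphogenetic proteins (0.29). Rare genes without overlap included Evpl (1.37) and Crct1 (2.43), genes of the cornified layer of skin, at 1.05 and 0.903 CPM on WD.

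Genes of 43 lists, for pathways, cell types and organelles, were then described by their counts and medians. Their counts stand against 3.07% higher and 2.04% lower at the unadjusted level over all genes tested. With 1 library left out the count higher or the count lower moved by over 1.5 times, or to or from 0, in 35 of 43 lists, so that counts of a few genes depend on single libraries. Medians within CT and within EC-Myc OE follow the pooled median in brackets, and in 23 of 43 lists they had opposite signs. Under the exchanged names the medians of 22 of 43 lists changed sign, and 37 lists held members at an adjusted p under 0.05 in edgeR's test. With names kept and all 14 libraries, edgeR's test in the additive model gave an adjusted p under 0.05 to Zbtb16 and no other list member. Zbtb16 is in the list of glucocorticoid-responsive genes. Leaving out CT-WD 1 added Tsc22d3 of the same list, and leaving out OE-WD 1 added Rpl41, a cytosolic ribosomal protein gene. DESeq2's Wald test added Notch4, in the list of angiogenic ligands and receptors, and Ccl21a, in that of leukocyte adhesion and chemokine genes.

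The list of glucocorticoid-responsive genes held the largest number of genes at the unadjusted level. Of 27 tested, 11 (40.7%, against 3.07% of all genes) were higher at that level and none lower, 26 had a positive log2 fold change, and the median was 0.33 (0.47 in CT, 0.14 in EC-Myc OE). Besides Zbtb16, those at the unadjusted level included Tsc22d3, the glucocorticoid-induced leucine zipper (0.46), Glul, glutamine synthetase (0.74), the metallothionein gene Mt1 (0.63), Ddit4, an inhibitor of mTORC1 (1.12), and the transcription factor Cebpd (0.57). Lpin1, a phosphatidate phosphatase and coactivator, had a log2 fold change of 0.42, Errfi1, an inhibitor of the epidermal growth factor receptor, 0.30, and Nr3c1, the glucocorticoid receptor itself, 0.22. The ubiquitin ligases of muscle atrophy were also among them, Fbxo32 at 0.49 and Trim63 at 0.64. Fkbp5, a co-chaperone of the receptor and a standard marker of its activity, had a log2 fold change of 0.34 with an unadjusted p of 0.318 in edgeR's test. Values in CT exceeded those in EC-Myc OE for most of these genes, as for Trim63 (1.30 and 0.14) and Cebpd (1.03 and 0.22), but no member passed the test of this difference at the adjusted level in edgeR. Summed over the list, CT-CTD 1 to 3 held 7074, 5622 and 6175 CPM and CT-WD 1 to 3 held 7018, 10066 and 10133 CPM. For OE-CTD 1 to 4 the sum was 4508, 4317, 4599 and 4200.4 CPM, against 6745, 4458, 5131 and 4569.7 CPM for OE-WD 1 to 4, so that the diets overlapped in both genotypes through CT-WD 1, OE-WD 2 and OE-WD 4. The most abundant member was Pdk4. With each library left out in turn the median was between 0.26 and 0.37, with 8 to 14 members higher at the unadjusted level. With the replicate number as a block in both genotypes the median was 0.29, with 7 members higher at that level. Under the exchanged names it was -0.44, with no member higher and 12 lower at the unadjusted level.

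**Figure D2:**
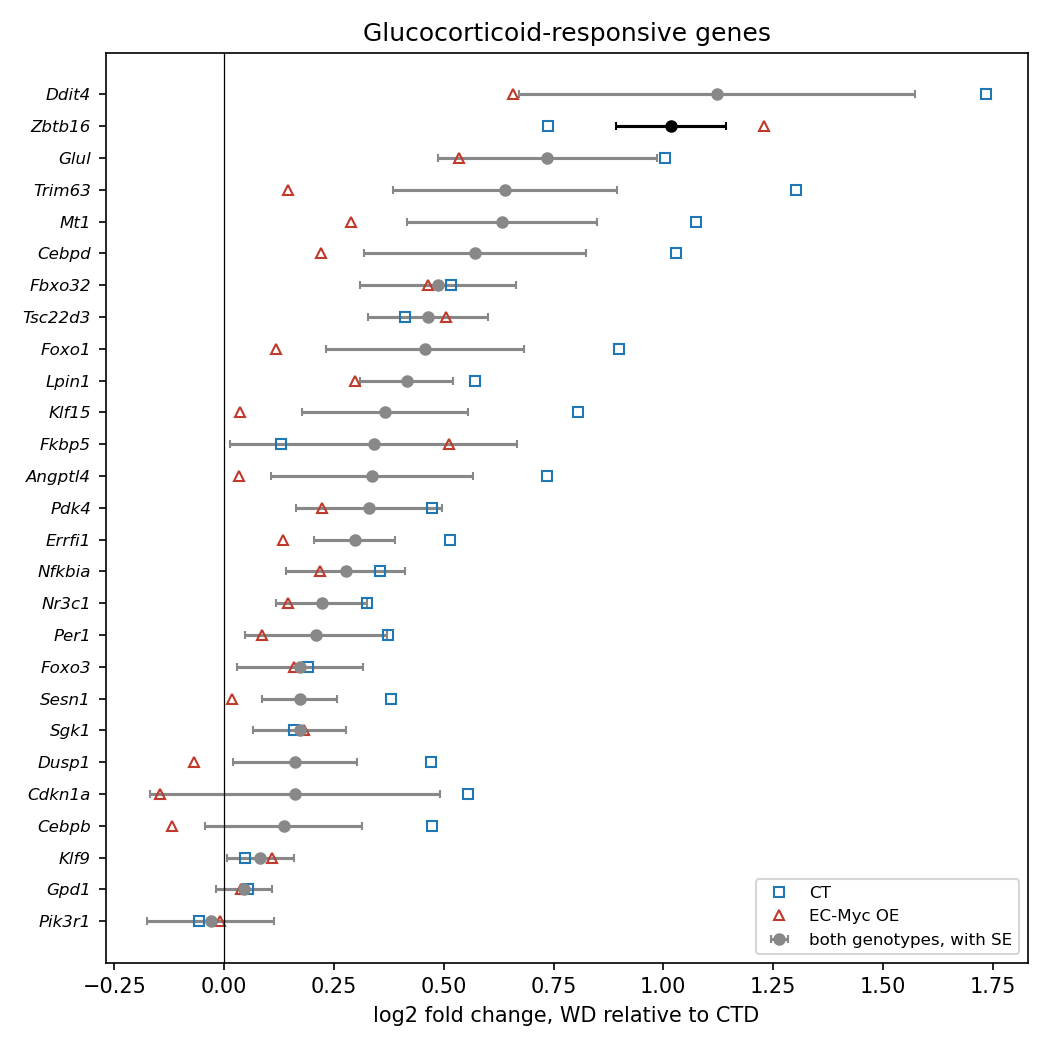
Log2 fold change of WD relative to CTD (horizontal axis) for the 27 glucocorticoid-responsive genes tested, over both genotypes with its standard error (filled points, black for Zbtb16, which passed the adjusted level), within CT (squares) and within EC-Myc OE (triangles). Of the filled points 26 lie above 0, from 0.04 for Gpd1 to 1.12 for Ddit4, and Pik3r1 lies at -0.03.

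Genes of endothelial cells, where the transgene acts, came next by that number. Of 22 tested, 7 (31.8%, against 3.07% of all genes) were higher and 1 was lower at the unadjusted level, none passed after adjustment in edgeR's test, 19 had a positive log2 fold change and the median was 0.12 (0.20 in CT, 0.07 in EC-Myc OE). The higher ones were Robo4 (0.26), a guidance receptor of endothelium, Eng (0.35), a co-receptor for TGF-beta, the phosphatase Ptprb (0.20), the angiopoietin receptor Tek (0.21), and the junction proteins Pecam1 (0.18), Cdh5 (0.17) and Cldn5 (0.38). Rgcc was lower (-0.32), and Kdr, the main receptor for VEGF, had a log2 fold change of -0.24 (unadjusted p = 0.0585 in edgeR's test). Summed over the list, CT-CTD 1 to 3 held 798, 836 and 891 CPM and CT-WD 1 to 3 held 932, 867 and 1009 CPM, while OE-CTD 1 to 4 held 976, 977, 956 and 881 CPM and OE-WD 1 to 4 held 999, 1028, 1028 and 1014 CPM. The diets did not overlap in EC-Myc OE by this sum, whereas in CT, CT-WD 2 lay below CT-CTD 3. The most abundant member was Eng, at 94.6 CPM, and no member was at 0 in any library. Notch4, Sema3g, Ace and Acvrl1, described above, are genes of the same cells, and the part of endothelial content in their values was not tested. Among angiogenic ligands and receptors, 3 of 22 tested were higher (Notch4, Tek and the Notch target Hey1 at 0.37) and none lower, with a median of -0.04 (CT 0.03, OE -0.03). Vegfa, the chief angiogenic factor of muscle fibres, had a log2 fold change of 0.04.

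Genes of epidermis and hair had the largest median of all lists. All 18 tested of 22 listed had a positive log2 fold change, 6 (33.3%, against 3.07% of all genes) were higher at the unadjusted level (Wnt10a, Krt10, Dsg1a, Sfn, Krt25 and Lor), and the median was 1.26 (0.63 in CT, 1.54 in EC-Myc OE). Without CT-CTD 1 the median of epidermal and hair genes was 1.94, with 11 higher, and the number higher was between 1 (without OE-WD 3) and 12 (without CT-WD 3) with any 1 library left out. They were rare transcripts, and their sum was 75.5, 17.2 and 28.2 CPM for CT-CTD 1 to 3 and 148, 22.3 and 24.7 CPM for CT-WD 1 to 3. For OE-CTD 1 to 4 it was 35.0, 59.7, 61.7 and 11.2 CPM, against 32.8, 117, 185 and 102 CPM for OE-WD 1 to 4. High sums were thus found in CT-WD 1 and in OE-WD 2 to 4, while CT-WD 2, CT-WD 3 and OE-WD 1 were no higher than CTD libraries. The most abundant tested member was Perp, at 11.01 CPM, which other epithelia also express. The keratins Krt5, Krt14 and Krt15 of basal epidermis had reads in every library but OE-CTD 4, where all 3 were at 0, and of the 22 genes listed 13 were at 0 in OE-CTD 4 and 0 in OE-CTD 3, OE-WD 3 and OE-WD 4. Krt25, a keratin of the hair follicle, was at 0 in 8 of 14 libraries and had most of its reads in OE-WD 4 (237) and OE-WD 3 (54), so that its value rests on these libraries. Wnt10a, a secreted Wnt ligand, had a log2 fold change of 1.39 below 1 CPM. The part of these transcripts in the count of genes over 1.5-fold was not tested.

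**Figure D3:**
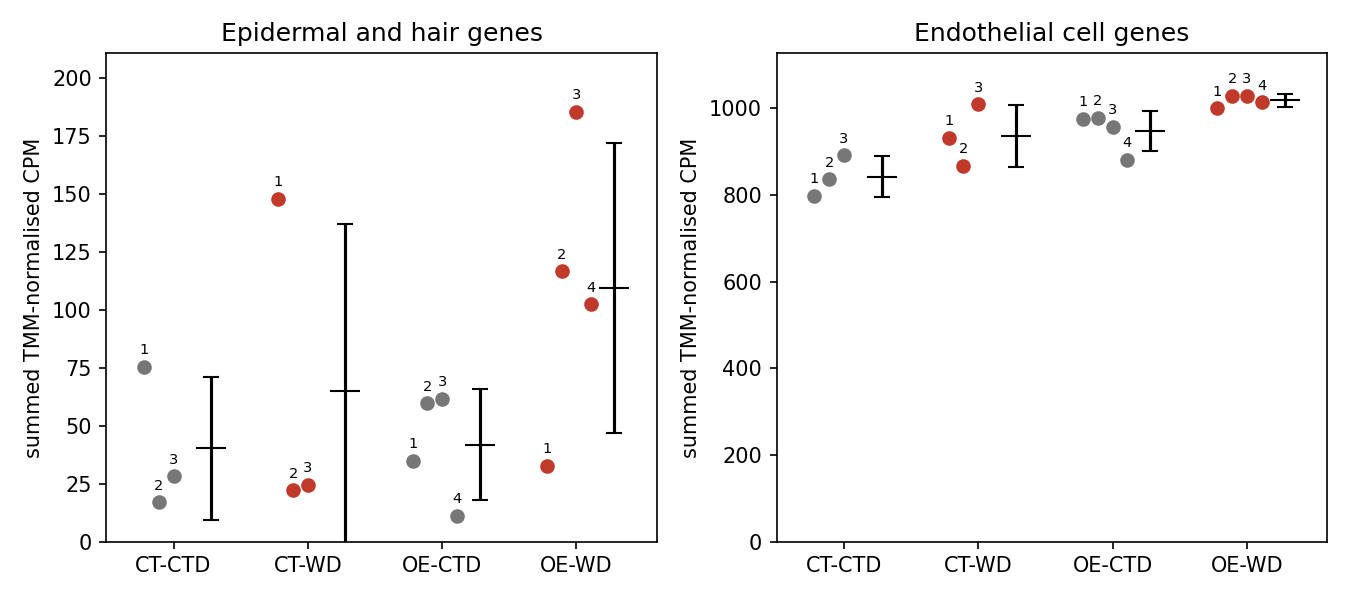
Summed TMM-normalised CPM (vertical axis) of the 18 epidermal and hair genes (left) and the 22 endothelial genes (right) tested, in each library of the 4 groups, numbered by replicate, with group mean and SD in black (the lower end of the SD in CT-WD on the left lies below 0 and is not drawn). The epidermal sum is between 11.2 and 185 CPM and the endothelial sum between 798 and 1028 CPM.

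Among genes of fuel use, which a diet rich in fat supplies with substrate, none had an adjusted p under 0.05 in edgeR's test. Of 29 genes that respond to PPARs, 3 were higher at the unadjusted level (Cpt1a at 0.26, Ucp3 at 0.46 and Cpt1b at 0.36) and 2 lower (Decr1 at -0.16 and Ech1 at -0.19), with a median of -0.06 (CT 0.05, OE -0.11). The carnitine palmitoyltransferases encoded by Cpt1a and Cpt1b admit fatty acids to mitochondria, and Ucp3 is an uncoupling protein of muscle. Ucp3 had 493, 498 and 548 CPM for CT-CTD 1 to 3, against 476, 808 and 701 CPM for CT-WD 1 to 3, and 227, 192, 188 and 181 CPM for OE-CTD 1 to 4, against 412, 230.4, 307 and 192 CPM for OE-WD 1 to 4. Its diet groups overlapped in CT through CT-WD 1 and in EC-Myc OE through OE-WD 4. Pdk4, the kinase that shuts pyruvate out of oxidation, had 1895 ± 653 CPM (SD, n = 7) on CTD and 2449.7 ± 1111 CPM (SD, n = 7) on WD, a log2 fold change of 0.33 (unadjusted p = 0.0667 in edgeR's test). Under the exchanged names both fell, Ucp3 by 1.30 and Pdk4 by 0.96 on the log2 scale. Other targets were Angptl4 at 0.34, an inhibitor of lipoprotein lipase, Plin2 at -0.06, a lipid droplet coat protein, and the fatty acid transporter Cd36 at -0.05.

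Among genes for fatty acid uptake and storage, 3 of 30 tested were higher at the unadjusted level (Lpin1, Mgll at 0.24 and Plin4 at 0.32) and 1 lower (Agpat2 at -0.58), with a median of -0.04 (CT -0.02, OE -0.04). Lpl, lipoprotein lipase, had a log2 fold change of -0.02, and the acyl-CoA synthetase Acsl3 one of 0.16, made of -0.48 in CT and 0.65 in EC-Myc OE. Enzymes of mitochondrial beta-oxidation had a median of -0.09 (0.03 in CT, -0.16 in EC-Myc OE), and 21 of the 24 had a negative value, 2 of them (Decr1 and Ech1) at the unadjusted level, where 1 (Cpt1b) was higher. Of the mitochondrial beta-oxidation enzymes 5 were lower without CT-CTD 1 and 0 without OE-CTD 1, OE-CTD 3 or OE-WD 3. Lipogenic targets of Srebp1 had a median of -0.11 over 20 genes (-0.42 in CT, 0.09 in EC-Myc OE), with 1 lower at the unadjusted level (Acss2 at -0.18). Single libraries bore on these values. Fasn, fatty acid synthase, had 404, 39.1 and 19.3 CPM for CT-CTD 1 to 3, and its log2 fold change of -0.98 was 0.03 without CT-CTD 1, as the list median was 0.03. Scd1, a desaturase, had a log2 fold change of -0.65 with levels between 52.3 and 645 CPM on WD. Of 24 cholesterol genes under Srebp2, 2 were lower (Mvd at -0.36 and Fdft1 at -0.15) and none higher, with a median of -0.05 (CT -0.14, OE 0.07).

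In insulin signalling, 1 of 34 genes was higher at the unadjusted level (Rabif) and 1 lower (Grb14, an adaptor that inhibits the insulin receptor, at -0.21), with a median of 0.02 (CT -0.01, OE 0.05). In insulin signalling 3 were higher without CT-WD 1, OE-CTD 4 or OE-WD 2. Rabif, an exchange factor for Rab proteins, had a log2 fold change of 0.63 (unadjusted p = 0.0220 in edgeR's test), 0.10 in CT and 1.03 in EC-Myc OE. The glucose transporter gene Slc2a4 had 624 ± 69.2 CPM (SD, n = 7) on CTD and 629 ± 49.3 CPM (SD, n = 7) on WD, a log2 fold change of 0.01. The receptor substrates Irs1 and Irs2 were at 0.34 and 0.62, and for Irs2 the value was 0.19 without CT-WD 3, the library with 167 CPM. Foxo1, a transcription factor that insulin holds out of the nucleus, was at 0.46 (0.90 in CT, 0.12 in EC-Myc OE), and Socs3, a feedback inhibitor of cytokine signalling, at -0.31. Over 24 tested identifiers of the 23 glycolysis genes listed, 1 was higher (Hk1 at 0.22) and 1 lower (Pdp1 at -0.33), with a median of 0.01 (CT 0.07, OE -0.04). Over 19 genes of glycogen metabolism none was at the unadjusted level, with a median of 0.04 (CT -0.01, OE 0.01). In the network of Nr4a receptors and PGC-1, 1 of 24 was higher, the coactivator gene Ppargc1a (0.56), and the median was 0.03 (CT 0.09, OE -0.0026), with the carrier gene Slc25a25 at 0.86 over levels from 18.9 to 424 CPM.

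Adipocyte genes had a median of -0.17 (-0.46 in CT, -0.08 in EC-Myc OE), with 1 of 17 lower at the unadjusted level, Car3 (-0.17), and none higher. Leptin (Lep) had 10.2 ± 8.50 CPM (SD, n = 7) on CTD and 5.25 ± 5.35 CPM (SD, n = 7) on WD, a log2 fold change of -1.07 (unadjusted p = 0.0730 in edgeR's test) that was 2.21 (adjusted p = 0.0399) under the exchanged names. Adiponectin (Adipoq) was at -0.35. The summed level of adipocyte genes was between 2319 and 3398 CPM over the libraries, mostly Car3, which muscle fibres express too, and without CT-CTD 1 the median was 0.01.

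Immediate-early genes, induced within minutes by growth factors, contraction or handling of tissue, had a median of 0.19, with 0.70 in CT and -0.11 in EC-Myc OE. The median for immediate-early genes was 0.07 without CT-WD 3, which held the highest sum of them (1930.4 CPM, against 769.9 to 1452 CPM), and 0.31 without OE-CTD 3. It was 0.11 without CT-CTD 2, 0.12 without CT-CTD 3 and 0.12 without CT-WD 1. Of 28, 4 were higher at the unadjusted level (Fosb at 1.496, Jun at 0.28, Maff at 0.80 and Btg2 at 0.64) and 1 lower (Fosl1 at -0.50). The mouse Myc gene was at 0.46, with 5.36 ± 1.38 CPM (SD, n = 7) on CTD and 7.51 ± 3.06 CPM (SD, n = 7) on WD. Of the circadian clock, 2 of 12 genes in the phase of Dbp were lower, Dbp itself (-0.43) and Per3 (-0.27), with a median of -0.01 (CT -0.24, OE 0.08), and 1 of 7 in the phase of Bmal1 was higher, Nfil3 (1.21), a repressor of the targets of Dbp, with a median of 0.13 (CT 0.08, OE -0.0047). The time of day of sampling is not given in the sources used here. Of 23 genes of atrophy and proteolysis 3 were higher (among them Fbxo32 and Trim63; 7 without OE-CTD 4) and none lower, with a median of 0.06 (CT 0.19, OE -0.01). Metallothionein and Nrf2 genes had 2 of 18 higher (Txnrd1 at 0.20 and Mt1) and 1 lower (Gsta4 at -0.24), with a median of 0.05 (CT 0.09, OE 0.04). Heat shock chaperones had 1 of 29 higher (Dnajb5 at 0.27) and a median of 0.11 (CT 0.26, OE -0.02). Without CT-WD 3, where the summed heat shock chaperones stood at 12445 CPM against 6530.1 to 7983 CPM elsewhere, that median was 0.01, with 0 higher and 2 lower. Genes of Atf4 and the unfolded protein response had none of 25 at the unadjusted level and a median of 0.10 (CT 0.20, OE 0.01), or 0.06 without CT-WD 1 and 0.06 without OE-WD 1.

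In the extracellular matrix, 32 of 36 genes for fibrillar collagens and crosslinking enzymes had a positive log2 fold change, 2 of them at the unadjusted level, and none was lower at that level. Both encode prolyl hydroxylase subunits that mature collagen, P4ha1 (0.26) and P4ha2 (0.22), whereas the collagen I genes Col1a1 and Col1a2 were at 0.52 and 0.49 with unadjusted p of 0.252 and 0.259 in edgeR's test. The median of 0.13 for fibrillar collagens and crosslinking enzymes was made of 0.36 in CT and 0.02 in EC-Myc OE, and without CT-WD 1 it was -0.07. Under the exchanged names it was 0.83, with 31 higher at the unadjusted level and 19 at the adjusted level in edgeR's test. Leaving out CT-WD 1 also turned the medians of tendon genes, from 0.33 (CT 0.58, OE 0.24) to -0.13 over 14 genes of which none was at the unadjusted level, and of matrix metalloproteinases and inhibitors, from 0.20 (CT 0.29, OE 0.06) to -0.03. Of the 15 in the latter list, Timp3 (0.25) and Adamts4 (0.88) were higher at the unadjusted level. Basement membrane genes had none of 17 at that level and a median of 0.05 (CT 0.10, OE 0.07), which was 0.51 with 11 members at the adjusted level under the exchanged names. Macrophage genes had 1 of 18 higher, Cd14 (0.55), and a median of 0.11 (CT 0.49, OE -0.12) that was -0.11 without CT-WD 1 and -0.02 without CT-CTD 3. Of 16 leukocyte adhesion and chemokine genes 2 were lower, Ccl21a and Cxcl12 (-0.27), with a median of 0.16 (CT 0.33, OE -0.08), and of 23 MHC and interferon genes 1 was lower, the immunoproteasome subunit gene Psmb8 (-0.49), with a median of -0.06 (CT -0.02, OE -0.03).

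Genes of mitochondria and of protein synthesis had medians near 0. The median was -0.04 over 82 nuclear genes of oxidative phosphorylation (0.12 in CT, -0.17 in EC-Myc OE), 76 of them negative and none at the unadjusted level, and -0.05 (CT -0.0033, OE -0.06) over the 13 genes encoded by mitochondrial DNA, also with none. Mitochondrial ribosomal protein genes had 1 of 77 lower (Mrpl10 at -0.21) and a median of -0.05 (CT 0.05, OE -0.11). Cytosolic ribosomal protein genes had 3 of 82 lower, Rpl41, Rps27a (-0.59) and Rps27l (-0.13), and a median of -0.03 (0.11 in CT, -0.13 in EC-Myc OE), and such genes are uncertain where pseudogenes share their reads. Of 37 proteasome subunit genes 2 were lower, Psmb10 (-0.24) and Psmb8, both of the immunoproteasome, with a median of -0.01 (CT 0.05, OE -0.05). Genes of ribosome biogenesis, a program that c-Myc is known to drive, had none of 30 at the unadjusted level and a median of 0.02 (CT 0.01, OE 0.01).

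Genes of fibre type had medians near 0 as well. Slow fibre genes had a median of -0.05 (CT 0.09, OE -0.16), with 1 of 16 higher (Lmod2 at 0.30) and 1 lower (Casq2, slow calsequestrin, at -0.21), and fast fibre genes had a median of 0.04 (CT 0.07, OE 0.01) with none of 16 at the unadjusted level. Of 28 genes of calcium handling in the sarcoplasmic reticulum, 1 was higher (Jph1 at 0.16) and 1 lower (Casq2), with a median of -0.0044 (CT -0.03, OE 0.02). Neuromuscular junction and denervation genes had 1 of 17 higher (Runx1 at 0.37) and a median of 0.03 (CT 0.07, OE 0.0049), and satellite cell and myogenic genes had none of 17 and a median of -0.03 (CT -0.01, OE 0.02). Cell cycle genes had none of 19 at the unadjusted level and a median of 0.07 (CT 0.06, OE 0.06), Schwann cell genes none of 14 and -0.10 (CT -0.12, OE -0.11), blood genes none of 5 and 0.13 (CT 0.10, OE 0.10) (-0.05 without OE-WD 2), and B cell and immunoglobulin genes none of 5 and -0.08 (CT -0.12, OE -0.05) (0.09 without OE-CTD 4). Of the medians at least 0.1 from 0, those of glucocorticoid-responsive genes, endothelial cell genes and clock genes of the Bmal1 phase stayed within 1.5 times their value with any 1 library left out. The others moved further, and many medians nearer to 0 changed sign.

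**Figure D4:**
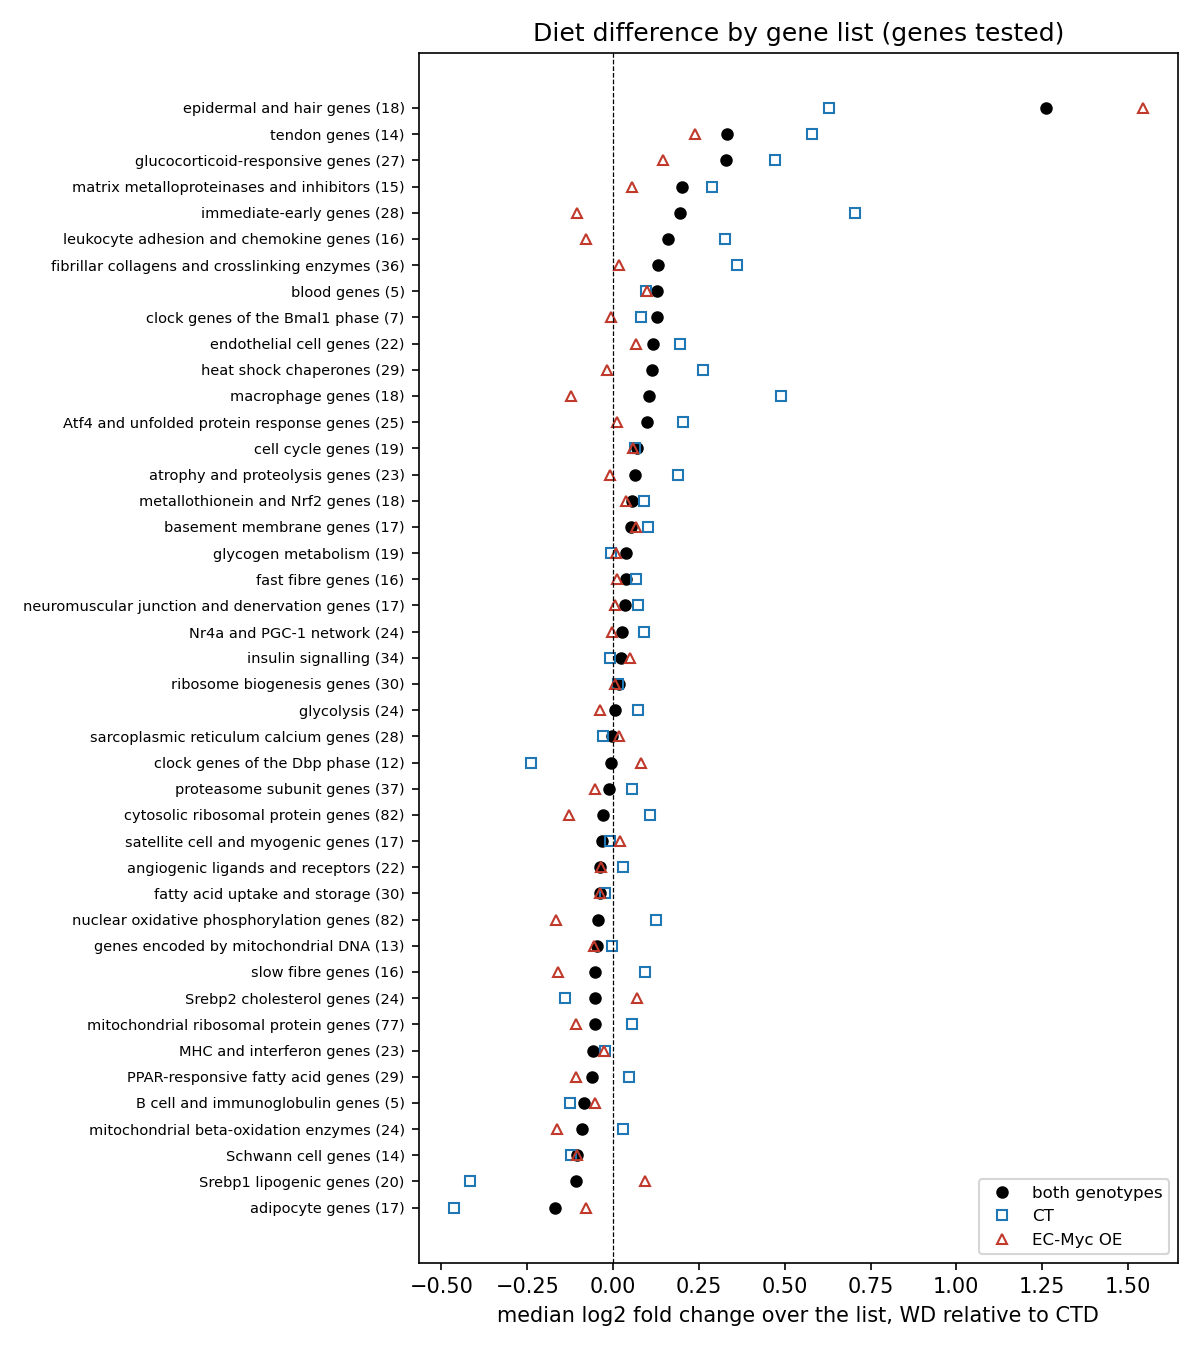
Median log2 fold change of WD relative to CTD (horizontal axis) for each of the 43 gene lists, with the number of genes tested in brackets, over both genotypes (filled points), within CT (squares) and within EC-Myc OE (triangles). Epidermal and hair genes lie highest at 1.26 and adipocyte genes lowest at -0.17, and the list of glucocorticoid-responsive genes lies at 0.33.

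The diets were finally compared within each genotype in a model of group means, and the difference between both responses was tested as an interaction. That model held no block for the replicate numbers. Within CT, edgeR, the tool run for it, called no gene (0%) at the adjusted level (smallest adjusted p = 0.366), against 1096 genes at the unadjusted level. Within EC-Myc OE it called 1 gene (0.00647%), Zbtb16, against 622 at the unadjusted level. The interaction gave no gene at the adjusted level (0%), with a smallest adjusted p of 0.568, and 880 genes (5.69%) at the unadjusted level. Other tools gave 3 interaction genes (DESeq2) or 0 (limma on FPKM, and voom with sample weights). In edgeR the number was 9 with the replicate number as a block in both genotypes and 2 without CT-CTD 1 and CT-WD 1. It was 19 without these libraries and OE-CTD 4 and OE-WD 4. For Zbtb16 the interaction had an unadjusted p of 0.0390 and for Cntfr one of 0.302 in edgeR's test, and neither passed after adjustment.

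Promoter sequence was at hand from RefSeq (GRCm38.p6) for 1 of the 2 called genes, Cntfr, with 6 annotated starts. On either strand none of its 6 windows, from 250 bases before to 50 bases after a start, held the E-box bound by Myc and clock proteins, the cyclic AMP response element, the D-box bound by Dbp and Nfil3, the CCAAT box or the glucocorticoid response element. These were found in 7.15%, 1.79%, 0.938%, 37.4% and 0.00913% of 32851 promoters of that length. The glucocorticoid response element was searched only as the exact letters AGAACA and TGTTCT with a fixed spacer. These were in 3 promoters of all, so that their absence from Cntfr tells little, and looser forms were not searched. All windows of Cntfr but that of the last start overlap a neighbour.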

How the data were processed

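RNA of soleus and gastrocnemius was sequenced after poly-T selection. Read counts for 54532 Ensembl genes were deposited by the authors as plain counts. FPKM, which are counts scaled to gene length and library total, were deposited by the authors as well. The submitters' processing notes name HISAT2 2.0.5, featureCounts 1.5.0-p3 and mm10. Of 54409 gene identifiers shared with GENCODE M21 (GRCm38), 98.3% had the same position.

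Counts were tested in R 4.3.3 with edgeR 4.0.16 (TMM normalization, robust quasi-likelihood F test) in an additive model of genotype and diet over all 14 libraries, and in a model of the 4 group means for each genotype alone and for the interaction. The filterByExpr rule on the 4 groups left 15458 genes and removed 0.0467% to 0.0694% of a library's counts. P-values were adjusted over all genes tested by the Benjamini-Hochberg method. Levels are TMM-normalised CPM, and log2 CPM for principal components used a prior count of 2. Alternatives used DESeq2 1.42.0, limma 3.58.1 on log2(FPKM + 1) and log2(FPKM + 0.1), limma voom with sample weights, other size factors, no filter, replicate blocks, no genotype covariate, equal weight of the genotypes, a slow fibre score, each library left out, and exchanged group names. The scripts were tested on simulated data.

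Genes named in the text were, per direction, the 12 of a mean of at least 1 CPM and the same sign in both genotypes that passed the adjusted level or, where fewer did, had the smallest p, fixed genes of fuel use and its signals, and up to 4 members of each of 43 gene lists with the smallest p. Some genes that this rule picks are not reported here. All others were named after their values were seen. The members and lists were chosen with earlier results of these data known.

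Whether equal replicate numbers mark pairs was examined through the correlation of both libraries' departures from their own group mean over all genes. In CT these correlations were 0.385, 0.123 and 0.203, all above 0.1. Numbers 1 and 3 matched their own number best and number 2 matched number 3. In the labels, CT-CTD 1 and CT-WD 1 had the neighbouring codes 352 and 351, whereas the other CT libraries had codes from 689 to 692. The meaning of these codes is not stated, and the pairing by number rests on the correlations alone.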

Additional observations from a re-analysis of the deposited data

Results flagged for a closer look

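In OE-WD, 1 library lay far from the other 3 for 4 of the genes named by rule. Zbtb16 stood at 131 CPM in OE-WD 1, against 90.3, 89.5 and 89.5 CPM in OE-WD 2 to 4, a gap of 0.981 of the whole range. Without OE-WD 1 its log2 fold change was 0.92 (adjusted p = 0.000263 in edgeR's test). Slc2a4 stood at 641 CPM in OE-WD 1, against 589, 595 and 589.8 CPM, and Myc stood at 9.03 CPM in the same library, against 5.61, 5.74 and 5.22 CPM. Camk1g stood at 0.631 CPM in OE-WD 2, against 0.817, 0.851 and 0.844 CPM in the other libraries, all of them low values. By chance about 1 in 20 groups holds a gap past the threshold used to find these. The rule was run on all 43 genes reported singly, in OE-CTD and in OE-WD, and on some summed levels and library measures. Among so many checks, several such gaps are due by chance.

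The response to diet differed between EC-Myc OE and CT at an unadjusted p-value under 0.05 in edgeR's interaction test for 5 of the 43 genes reported singly by rule, and for none of them at the adjusted level. Over all genes tested the share at that unadjusted level was 5.69%. The study names Zbtb16, Acsl3, Rabif and Socs3 from these same libraries, and the genes were chosen with earlier results known. Their number can therefore not be set against the share over all genes. The difference (EC-Myc OE minus CT, log2) was 0.49 for Zbtb16, higher on WD in both genotypes, 1.12 for Acsl3, 0.93 for Rabif, -1.50 for Irs2 and -1.86 for Socs3. Acsl3 and Socs3 had opposite signs in CT and EC-Myc OE, at -0.48 and 0.65 for Acsl3 and at 0.77 and -1.10 for Socs3. Irs2 was at 1.49 in CT, where CT-WD 3 held 167 CPM against 42.6 and 45.5 CPM in the other two. Their cause was not tested.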

How the results depend on the processing

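With group names kept, Zbtb16 had log2 fold changes between 0.92 and 1.10 over 28 settings and passed the adjusted level in 21, and Cntfr between 0.56 and 0.71 and in 12. Those without OE-CTD 4 and OE-WD 4, without CT-CTD 1 and CT-WD 1 or without these 4 libraries, and all those of the interaction were chosen after seeing the data. At 17.1% variation between replicates, how far the number of libraries limited precision was not tested. The 2 genes at the adjusted level became 6 with DESeq2's Wald test (4 over 1.5-fold), 1 without the filter on low counts (1), 0 without the genotype covariate (0), 1 with limma on log2(FPKM + 1) (1), on log2(FPKM + 0.1) (1) and with voom and sample weights (1), 0 without OE-CTD 4 and OE-WD 4 (0), 0 without these 4 libraries (0), and 1253 under the exchanged names (513). With the replicate number as a block in both genotypes the count was 0 (0 over 1.5-fold), and with the block in CT only it was 1 (1). The labels state pairs in neither genotype. Correlations in EC-Myc OE were 0.0711, 0.138, 0.142 and 0.338, with a best match to the own number in 3 of 4. In CT they were 0.385, 0.123 and 0.203, with number 2 matching number 3 best. Left-out libraries gave between 0 and 3 genes (0 and 2 over 1.5-fold), with 0 without CT-WD 3 and without OE-CTD 4, and 3 without CT-WD 1, where Tsc22d3 was added. The 209 genes over 1.5-fold at the unadjusted level became 806 without the filter, 25 and 126 with limma on log2(FPKM + 1) and log2(FPKM + 0.1), 334 with voom and sample weights, and 1078 under the exchanged names. The 0 interaction genes became 3 with DESeq2 (Mylk4, Acsl3 and Gm11716), 9 with the replicate block in both genotypes, 2 without CT-CTD 1 and CT-WD 1, 19 without these 4 libraries, and between 0 and 1 with a library left out, 1 without CT-WD 1 (Cnksr3) and 1 without CT-WD 2 (Acsl3).

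Exchanging the names changed the sign of 32 of 43 genes reported singly by rule. With an adjusted p under 0.05 by either naming, it reversed Zbtb16 (-0.78), Cntfr (-0.38), Prima1 (-0.80), Pitpnc1 (0.27), Pdk4 (-0.96), Ucp3 (-1.30) and Lep (2.21), since it turns the genotype difference into the diet difference. Of the other named genes, 1131 of 1189 values over all settings moved by no more than their standard error without a change of call, and with names kept 1133 of 1204 list medians kept their sign. For the other changes the cause was not tested.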
